A study of Mus musculus with 6 samples.

Results

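The genes examined were 39 mouse genes of DNA replication, which license origins, open and run the fork, or supply nucleotides. They were chosen as a list of gene symbols, and every probe set whose platform annotation names exactly 1 of them was taken, which gave 91 probe sets of the 34945 that name 1 gene. All 39 were measured, among 18193 genes. They were followed in haematopoietic stem cells (HSC), the cells that sustain blood formation, sorted as CD150+ CD48- KSL (Kit+ Sca1+ lineage-negative) cells. The donors were Lig4mut mice, which carry a mutation of the DNA ligase IV gene, and their wild-type littermates (WT, Lig4+/+), all 6 to 8 weeks of age and born to Lig4mut/+ parents. Each genotype had 3 biological replicates, each on its own Affymetrix array. The labels give neither the nature of the mutation nor how many mice went into a replicate, so p-values measure the spread between these samples.

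Replication starts when the origin recognition complex (Orc1 to Orc6) marks an origin and, with Cdc6 and Cdt1, loads the Mcm2 to Mcm7 helicase onto DNA, a step called licensing. Cdc45 and the GINS complex then join the loaded helicase, and the primase and the polymerases copy the unwound strands with the Pcna clamp, which the Rfc complex loads. Ribonucleotide reductase, thymidylate synthase and thymidine kinase supply the deoxynucleotides. Adult HSC are mostly out of cycle, and many of these genes are known targets of the E2F factors that drive entry into S phase.

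The values are log2 levels after quantile normalization of the deposited values, and a value of 3 is the floor of the table. Array medians as deposited were 5.97 to 6.05 in Lig4mut and 6.29 to 6.34 in WT, and arrays correlated at r = 0.844 to 0.860 within Lig4mut, 0.863 to 0.899 between the genotypes and 0.940 to 0.950 within WT, across probe sets. Lig4 itself, with 1 probe set, had levels of 4.97, 3.16 and 3.10 in Lig4mut and of 7.53, 6.66 and 7.63 in WT. All Lig4mut arrays lay below the WT arrays for Lig4, with a log2 difference of -3.53 (limma, adjusted p = 0.13). The 10 measured markers of stem cells were above the floor in all arrays, with a mean level of 9.41 to 10.16 in Lig4mut and of 10.09 to 10.27 in WT. Of the 10, Kit, Hlf and Meis1 were lower in all Lig4mut arrays than in any WT array (log2 differences of -0.95, -1.44 and -1.65). That was 3 of 10, where 5.65% of all genes were so, and 4 of the 10 had differences above 0. Other markers varied by array. The 8 granulocyte markers averaged 6.69, 11.03 and 7.38 in Lig4mut replicates 1, 2 and 3 and 8.38 to 9.50 in WT, and the 6 markers of macrophages and dendritic cells 7.99 to 8.33 in Lig4mut and 6.58 to 7.41 in WT. The 5 measured B cell markers averaged 6.67, 7.22 and 7.62 in Lig4mut and 6.54 to 6.70 in WT, and the 4 endothelial markers 8.99 to 10.45 in Lig4mut and 7.18 to 9.32 in WT. The 3 megakaryocyte markers averaged 9.26 to 9.94 in Lig4mut and 8.74 to 9.23 in WT. Averages of the measured T cell, erythroid and progenitor markers overlapped between the genotypes. In none of these lists was a gene at the floor, and their part in the values below was not tested. In bulk samples fewer cells of a type and less RNA per cell cannot be told apart.

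A feature that the choice of genes did not use is the presence of E2F words before the gene start. RefSeq promoter windows of 300 bases (GRCm38.p6, 250 before the start and 50 after it) were at hand for 32 of the 39 genes. The words TTTGGCGC, TTTCCCGC, TTTCGCGC and TTTGCCGC, searched on both strands with overlaps allowed, were found for 14 of the 32 (43.8%), against 2.6% of all 27025 genes in the table and 3.81% of those on the array. GGGCGG, the core of a GC box, was found for 25 of the 32 (78.1%, against 38.2% of all genes and 57.3% of those on the array) and CCAAT for 20 (62.5%, against 41.1%). The 160 bases just before the start are shown for Mcm6 (chr1:128359706-128359865, minus strand), Mcm5 (chr8:75109349-75109508, plus strand) and Orc3 (chr4:34614943-34615102, minus strand), which hold E2F words. Those of Cdc45 (chr16:18811973-18812132, minus strand) and Rfc4 (chr16:23127731-23127890, minus strand) are shown because these genes had the smallest p of the 39, and they hold none. Capitals mark the E2F words, and words that overlap run together, as both words of Mcm5 do.
Mcm6 upstream sequence: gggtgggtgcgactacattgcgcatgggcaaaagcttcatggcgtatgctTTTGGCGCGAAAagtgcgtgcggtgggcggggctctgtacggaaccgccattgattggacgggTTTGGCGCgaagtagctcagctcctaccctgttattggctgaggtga
Mcm5 upstream sequence: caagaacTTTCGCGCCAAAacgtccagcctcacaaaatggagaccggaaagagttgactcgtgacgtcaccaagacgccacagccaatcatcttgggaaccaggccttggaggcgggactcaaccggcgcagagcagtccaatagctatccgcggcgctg
Orc3 upstream sequence: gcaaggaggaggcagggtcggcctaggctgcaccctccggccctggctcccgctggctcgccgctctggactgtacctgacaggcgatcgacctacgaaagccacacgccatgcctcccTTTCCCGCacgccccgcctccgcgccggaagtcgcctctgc
Cdc45 upstream sequence: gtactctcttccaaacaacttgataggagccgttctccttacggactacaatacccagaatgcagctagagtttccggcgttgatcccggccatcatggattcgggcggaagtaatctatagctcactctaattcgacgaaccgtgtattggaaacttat
Rfc4 upstream sequence: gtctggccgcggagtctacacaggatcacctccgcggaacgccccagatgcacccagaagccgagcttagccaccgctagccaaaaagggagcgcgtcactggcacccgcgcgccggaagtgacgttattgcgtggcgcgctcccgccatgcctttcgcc
A match is a match of letters and not a measured binding site.

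No replication gene passed the test between the genotypes, and their differences lay on both sides of 0. By limma, with Benjamini-Hochberg adjustment over all genes, 0 of the 39 lay under 0.05, where 0.011% of all genes did, and the lowest adjusted p was 0.138. At an unadjusted p under 0.05 there were 5 (12.8%), against 19.7% of all genes. These were Cdc45, Rfc4 and Prim2 on the higher side (15.5% of all genes) and Orc3 and Pole on the lower side (4.18% of all genes). With this scaling, 3 of 39 lay below the higher share of all genes and 2 of 39 near the lower one. The split depended on the scaling, on the genes kept and on single arrays. It was 2 higher and 2 lower in the values as deposited (6.71% and 5.44% of all genes), 4 and 1 with cyclic loess (8.67% and 4.39%) and 9 and 1 with arrays centred on their medians (18.4% and 2.6%). With dim genes left out it was 2 and 1 (8.91% and 4.36% of the 10916 genes kept). Without Lig4mut replicate 1, 5 genes were higher and 4 lower (16.4% and 6.07% of all genes). Without Lig4mut replicate 2 there were 5 and 1 (14.3% and 4.94%), and without Lig4mut replicate 3 there were 3 and 4 (14.0% and 5.13%). No gene was lower without WT replicate 1, 2 or 3 (3.08%, 2.98% and 3.12% of all genes), and 1, 1 and 3 genes were higher (10.3%, 9.67% and 11.4%).

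The difference, Lig4mut minus WT, was above 0 for 26 of the 39 genes and below 0 for 13, and 62.9% of all genes lay above 0. Its median was 0.158 over the 39 and 0.177 over all genes, and 19 of the 39 lay above 0.177. The median of all genes depended on the scaling. It was 0.019 in the values as deposited, 0.094 with cyclic loess and 0.332 with arrays centred on their medians, and the replication genes were at 0.11, 0.19 and 0.423 in the same settings. The 3 Lig4mut arrays all lay above the WT arrays for 3 genes, where 21.0% of all genes did so, and all below for 2, where 5.65% did so, or 5 in either direction (12.8%, against 26.7%). The mean level of the 39 genes was 9.25, 9.33 and 9.16 in the Lig4mut arrays and 9.35, 9.12 and 8.92 in the WT arrays, so the genotypes overlapped.

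**Figure D1:**
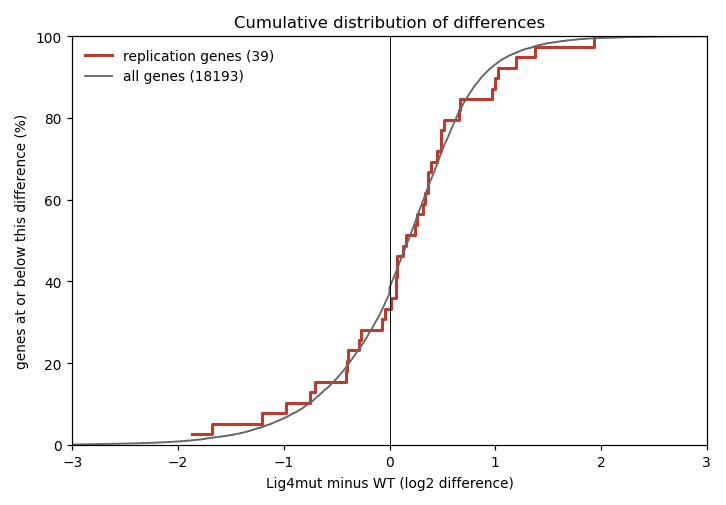
Cumulative share of genes (percent, vertical axis) by log2 difference, Lig4mut minus WT (horizontal axis), for the 39 replication genes and for all 18193 genes. The curve of the replication genes stays near that of all genes and crosses it several times, with medians of 0.158 and 0.177.

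The origin recognition genes had 4 values above 0 and 2 below it. Orc3, a core subunit, had levels of 10.09, 9.71 and 9.30 in Lig4mut and of 10.48, 10.40 and 10.32 in WT. All Lig4mut arrays lay below the WT arrays, with a difference of -0.70 ± 0.23 (SE, n = 3 per genotype; limma, adjusted p = 0.202). The WT arrays span 0.157 and the Lig4mut arrays 0.789, and all 3 probe sets of Orc3 had lower values. With arrays centred on their medians the difference was -0.37.

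Orc4, another core subunit, was split among the Lig4mut arrays, at 10.38, 7.01 and 7.58, against 10.41, 9.67 and 9.94 in WT. Replicate 1 of Lig4mut stood within the WT range and the other two well below it, and the difference of -1.68 ± 0.94 did not pass (adjusted p = 0.387). It was -2.71 without Lig4mut replicate 1 and -1.02 without Lig4mut replicate 2. All 4 probe sets of Orc4 had lower values, with a mean of -0.86. Orc6, the smallest subunit and the one least bound to the others, had 9.39, 9.24 and 8.59 in Lig4mut and 9.68, 8.43 and 7.66 in WT, which overlapped (0.49 ± 0.57, adjusted p = 0.68). Orc6 was at 0.03 without WT replicate 3, at 1.03 without WT replicate 1 and at 0.75 with arrays centred on their medians. Orc1, the ATPase subunit tied to licensing, Orc2 and Orc5 had differences of 0.07 to 0.24, and the other probe sets of Orc1 and Orc2 lay below 0.

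Among the 8 licensing genes the arrays of the genotypes overlapped for each gene. Cdt1, the loader that geminin holds in check, had 7.98, 9.18 and 9.93 in Lig4mut and 10.79, 10.01 and 9.90 in WT. Replicate 3 of Lig4mut lay within the WT range and the others below it, with a difference of -1.20 ± 0.56 (adjusted p = 0.32) that was -0.68 without Lig4mut replicate 1. Its other 2 probe sets were at -0.34 and 0.18, and the mean of the 3 was -0.45. Cdc6, which acts beside Cdt1, differed by 0.01 ± 0.63, the value nearest to 0 of the 39 and one with a wide error.

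The Mcm2 to Mcm7 genes encode the subunits of 1 ring-shaped helicase, and 5 of the 6 differences were above 0. Mcm2 had 11.50, 11.18 and 10.01 in Lig4mut and 10.95, 10.20 and 8.57 in WT. The ranges overlapped, and the difference of 0.99 ± 0.74 (adjusted p = 0.508) was 0.32 without WT replicate 3, the lowest array, and 1.51 without WT replicate 1. The mean over both probe sets of Mcm2 was 0.65. Mcm3 stood on the other side, with 11.79, 10.74 and 9.04 in Lig4mut and 11.54, 11.25 and 11.71 in WT. Replicate 3 of Lig4mut was the lowest array and replicate 1 the highest of the 6, and the difference of -0.98 ± 0.72 (adjusted p = 0.501) was -0.24 when Lig4mut replicate 3 was left out and -1.62 when replicate 1 was. With arrays centred on their medians Mcm3 was at -0.65. All 5 probe sets of Mcm3 had lower values, from -0.98 to -0.04, and 1 of the others was lower without overlap (-0.97 ± 0.55).

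Mcm4, Mcm5, Mcm6 and Mcm7 lay close to no difference, at 0.37 ± 0.28, 0.06 ± 0.27, 0.06 ± 0.30 and 0.13 ± 0.28. Mcm6 was at 12.04, 11.03 and 11.45 in Lig4mut and at 11.69, 11.39 and 11.25 in WT, so the WT arrays lay inside the Lig4mut range. Other probe sets did not always follow. Another probe set of Mcm6 was higher without overlap (0.72 ± 0.31). A second probe set of Mcm7 had 9.64, 9.12 and 8.88 in Lig4mut and 8.82, 8.36 and 8.18 in WT, a difference of 0.76 ± 0.28 with no overlap (limma over all probe sets, adjusted p = 0.264), while the other 3 probe sets of Mcm7 overlapped.

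**Figure D2:**
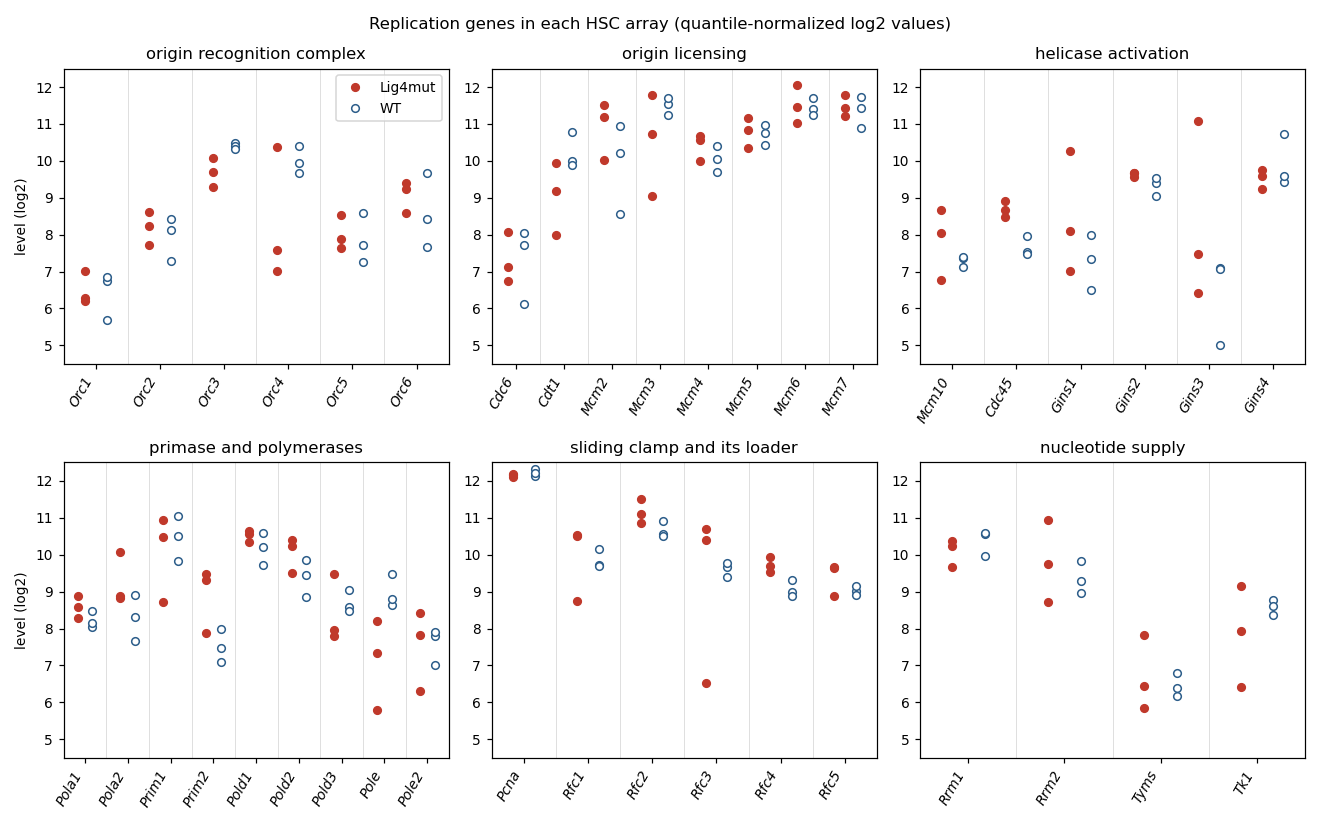
Quantile-normalized log2 level (vertical axis) of each of the 39 replication genes in each of the 6 arrays, in a panel per role, with Lig4mut arrays as filled points left of WT arrays as open points. Cdc45, Gins2 and Rfc4 have all Lig4mut points above the WT points and Orc3 and Pole all below, while the other 34 genes overlap.

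Genes that turn the loaded helicase on had 5 of 6 values above 0, with a median of 0.77, and this role held the gene with the smallest p. Cdc45, which joins the helicase at the start of S phase, had 8.48, 8.92 and 8.66 in Lig4mut and 7.53, 7.48 and 7.98 in WT. All Lig4mut arrays were higher, by 1.03 ± 0.21 on the log2 scale or 2.04-fold, and the gene missed the threshold over all genes (adjusted p = 0.138). The second probe set of Cdc45 was at 7.35, 8.39 and 8.13 in Lig4mut and at 6.84, 6.33 and 7.73 in WT, which overlapped (0.99 ± 0.47). Over all alternatives the difference of Cdc45 lay between 0.90 in the values as deposited and 1.22 with arrays centred on their medians.

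The GINS genes encode a complex that travels with Cdc45. Gins2 had 9.68, 9.68 and 9.56 in Lig4mut and 9.40, 9.04 and 9.52 in WT, higher without overlap by a margin that a single WT array nearly closed (0.32 ± 0.17, adjusted p = 0.374). It was 0.18 without WT replicate 2 and 0.63 with arrays centred on their medians. Its other probe set was higher without overlap too (0.72 ± 0.28). Gins3 had 6.43, 11.08 and 7.48 in Lig4mut and 7.10, 7.08 and 5.01 in WT. Its difference of 1.93 ± 1.38 (adjusted p = 0.491) is the highest of the 39. It was 0.56 without Lig4mut replicate 2 and 1.24 without WT replicate 3, and the other probe set of Gins3 was at 0.18, with a mean of 1.06 over both. Gins1 was highest in the same array, with 7.02, 10.27 and 8.10 in Lig4mut and 7.99, 7.34 and 6.49 in WT. Lig4mut replicate 2 was also the array with the granulocyte markers at 11.03, and their part in these values was not tested. Gins4 lay on the other side, at -0.39 ± 0.39, and Mcm10, which helps the helicase unwind, at 0.52 ± 0.51.

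The primase and polymerase genes split, with 5 values above 0 and 4 below. Prim2, the large primase subunit, had 7.87, 9.48 and 9.32 in Lig4mut and 7.48, 7.08 and 7.98 in WT. Replicate 1 of Lig4mut lay within the WT range, and the difference was 1.38 ± 0.51, or 2.60-fold (adjusted p = 0.235). All 3 probe sets of Prim2 had higher values, from 0.46 to 1.69. Prim1, the catalytic partner of Prim2, did not share the pattern, at -0.42 ± 0.68 and with arrays that overlapped. Pola2, the accessory subunit of polymerase alpha, had 8.82, 10.07 and 8.89 in Lig4mut and 8.90, 8.32 and 7.67 in WT, a difference of 0.96 ± 0.48 (adjusted p = 0.345) that was 0.56 without Lig4mut replicate 2, and of its 3 probe sets 1 was higher without overlap (1.74 ± 0.73) and 1 lay below 0.

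Pole encodes the catalytic subunit of polymerase epsilon, the enzyme of the leading strand. Its levels were 7.33, 5.79 and 8.22 in Lig4mut and 9.48, 8.65 and 8.81 in WT. All Lig4mut arrays were lower, and the difference of -1.87 ± 0.67 (3.65-fold lower, adjusted p = 0.224) was the lowest of the 39. Without Lig4mut replicate 2 it was -1.21. Pole has 1 probe set here, so no other measures it. Pole2, which encodes another subunit of the same enzyme, was at -0.04 ± 0.61. For polymerase delta, which copies the lagging strand, Pold1 and Pold2 were at 0.34 ± 0.26 and 0.67 ± 0.36. The other probe set of Pold1 was higher without overlap (1.18 ± 0.49), and the mean of both was 0.76. Pold3 was at -0.29 ± 0.50, with its other probe sets at -1.23, without overlap, and -2.52, with Lig4mut replicate 2 at the floor.

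**Figure D3:**
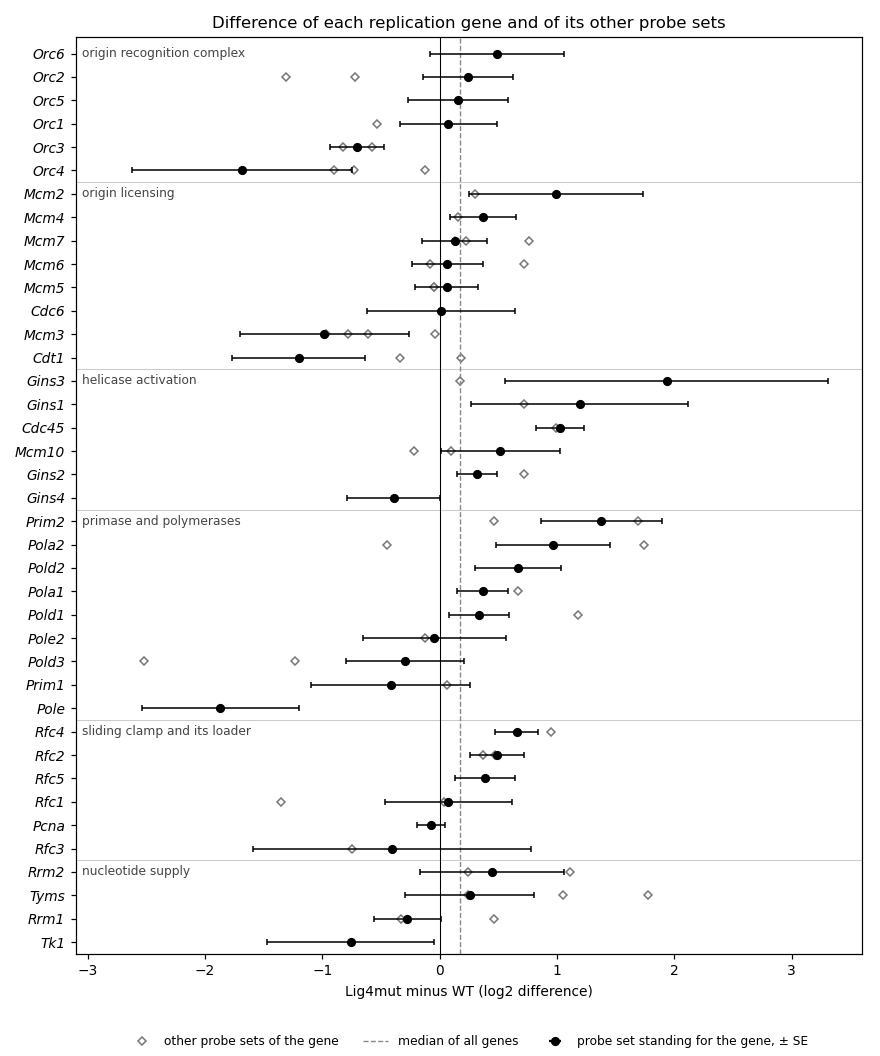
Log2 difference, Lig4mut minus WT (horizontal axis), of each replication gene, grouped by role, with the standard error of limma as the bar and the other probe sets of the gene as open diamonds. The dashed line is the median of all genes at 0.177, and for Orc2, Orc4, Cdt1, Gins3, Pola2, Pold3, Rfc1 and Tyms a diamond lies more than 1 log2 unit from the point that stands for the gene.

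The clamp gene Pcna, whose product tethers the polymerases to DNA, had the smallest standard error of the 39, while the loader gene Rfc3 had 1 of the widest. Pcna had 12.18, 12.12 and 12.15 in Lig4mut and 12.13, 12.31 and 12.22 in WT. These ranges overlapped, and the difference was -0.07 ± 0.12 (adjusted p = 0.785), which turned to 0.24 with arrays centred on their medians. Rfc4, a small loader subunit, had 9.69, 9.55 and 9.93 in Lig4mut and 8.99, 8.89 and 9.32 in WT, and all Lig4mut arrays were higher (0.66 ± 0.19, 1.58-fold, adjusted p = 0.171). Its second probe set overlapped between genotypes, with a difference of 0.95 ± 0.44. Rfc4 lay between 0.55 and 0.96 over all alternatives.

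Rfc2, another loader subunit, had 11.11, 10.85 and 11.50 in Lig4mut and 10.93, 10.55 and 10.52 in WT. Lig4mut replicate 2 fell inside the WT range, with a difference of 0.49 ± 0.23 (adjusted p = 0.318) and all 3 probe sets higher. It was 0.32 without Lig4mut replicate 3 and 0.84 with arrays centred on their medians. Rfc5 had 8.90, 9.65 and 9.68 in Lig4mut and 9.01, 9.14 and 8.92 in WT, so that the lowest array was a Lig4mut one (0.39 ± 0.26, adjusted p = 0.46, 0.64 without Lig4mut replicate 1 and 0.25 without replicate 3). Centred arrays gave 0.69 for Rfc5. Rfc1, the large subunit, was at 0.07 ± 0.54. Rfc3 had 10.41, 10.69 and 6.53 in Lig4mut and 9.68, 9.77 and 9.39 in WT, with replicates 1 and 2 of Lig4mut above all WT arrays and replicate 3 far below them (-0.40 ± 1.18).

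For the nucleotide supply genes the differences were -0.76 to 0.45, and 2 of 4 were above 0. Rrm1, the large subunit of ribonucleotide reductase, had 10.24, 9.66 and 10.38 in Lig4mut and 10.56, 10.59 and 9.96 in WT. These overlapped, with a difference of -0.27 ± 0.28 (adjusted p = 0.639) that was 0.06 with arrays centred on their medians, and it lay between -0.48 and -0.06 when 1 array was left out. Another probe set of Rrm1 lay at 0.46 ± 0.29. Rrm2, the small subunit that is made for S phase, had 9.76, 8.71 and 10.93 in Lig4mut and 8.97, 9.82 and 9.28 in WT, so the lowest and the highest arrays were both Lig4mut (0.45 ± 0.61, adjusted p = 0.732, -0.12 without Lig4mut replicate 3 and 0.99 without Lig4mut replicate 2). Tk1, thymidine kinase of the salvage route, had 9.15, 6.41 and 7.93 in Lig4mut and 8.77, 8.62 and 8.37 in WT, again wider on the Lig4mut side. Its difference of -0.76 ± 0.71 (adjusted p = 0.601) was -0.04 without Lig4mut replicate 2 and -1.42 without Lig4mut replicate 1. Tyms, thymidylate synthase, differed by 0.25 ± 0.55, with its 4 probe sets all above 0 and as far apart as 0.25 and 1.78.

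The spread within a genotype was wide for many of these genes. The SD over 3 arrays had a median of 0.508 in Lig4mut and of 0.374 in WT, against 0.452 and 0.283 over all genes, and it was larger in Lig4mut for 25 of the 39 genes (64.1%, against 69.9% of all genes). The SD in Lig4mut was 2.44 for Gins3, 2.33 for Rfc3, 1.81 for Orc4 and 1.65 for Gins1. Mcm2, Orc6 and Cdc6 were wider in WT, with SDs of 1.22, 1.02 and 1.03 there and of 0.78, 0.43 and 0.68 in Lig4mut. WT replicate 3 held the lowest value of the 6 arrays for 11 of the 39 genes (28.2%, against 14.3% of all genes). Lig4mut replicate 2 held the highest for 12 (30.8%, against 25.9% of all genes), a share near that of all genes. The standard error of the difference was over 0.5 for 19 of the 39 (48.7%, against 29.4% of all genes), so a difference of 1 log2 unit lay within 2 standard errors of 0 for these. Of all 18193 genes 1004 had an array at the floor, and none of the 39 did. The part of level and floor in the spread was not tested.

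**Figure D4:**
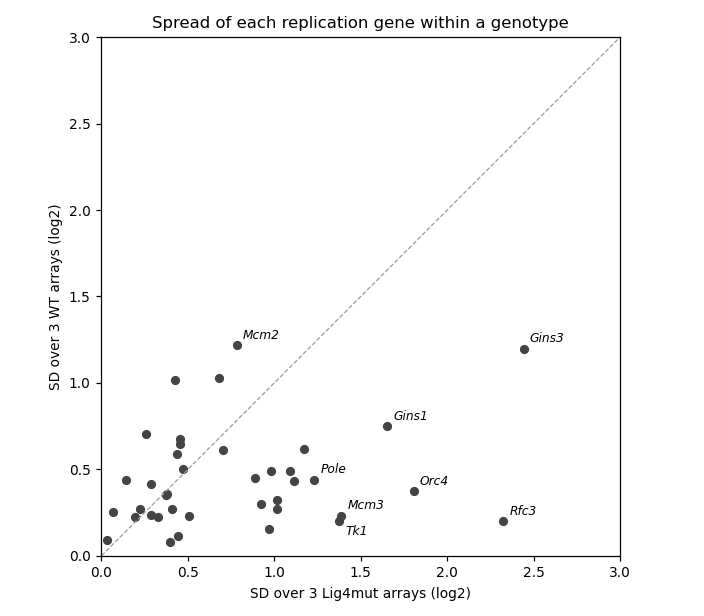
Standard deviation of each of the 39 replication genes over the 3 Lig4mut arrays (horizontal axis, log2) and over the 3 WT arrays (vertical axis, log2), with the dashed line marking equal spread. Of the 39 points 25 lie on the Lig4mut side of the line, and Gins3, Rfc3, Orc4 and Gins1 lie farthest out.

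Different probe sets of a gene disagreed in direction for some of the genes. Of the 39 genes, 9 had 1 probe set and 30 had several. All probe sets lay above 0 for 14 of the 30 and below 0 for 6, and the other 10 had probe sets in both directions. No share over all genes is at hand for these counts. Of all 91 probe sets, 6 had an unadjusted p under 0.05 (6.59%, against 17.5% of all probe sets), 8 were higher without overlap (16.6% of all probe sets) and 4 lower without overlap (7.13%). The genes with E2F words did not lie on 1 side, with 8 above 0 and 6 below, a range of -1.20 for Cdt1 to 1.93 for Gins3 and a median of 0.03, against 0.32 for the 18 genes whose windows hold none.

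The other genes of the pathway had no member past the test either, with 0 of 69 measured by limma and 9 at an unadjusted p under 0.05 (13.0%, against 19.7% of all genes). Of the 12 genes that control licensing and origin firing, 1 was higher and 1 lower at that level (15.5% and 4.18% of all genes), with a median difference of 0.26. Dbf4, the activating subunit of the origin-firing kinase, had 6.72, 4.97 and 6.31 in Lig4mut and 8.03, 7.72 and 7.56 in WT. All Lig4mut arrays were lower (-1.78 ± 0.49, adjusted p = 0.167), but the other probe set of Dbf4 overlapped (-0.13 ± 0.38) and the mean of both was -0.95. Lrwd1, a partner of the origin recognition complex, had 11.57, 11.59 and 11.91 in Lig4mut and 11.10, 10.98 and 11.40 in WT, higher without overlap (0.53 ± 0.18, adjusted p = 0.213). The other probe set of Lrwd1 lay on the other side of 0 (-0.30 ± 0.31), and the mean of both was 0.11. Ticrr, an origin-firing factor, and Mcm9, a relative of the helicase subunits, differed by 1.01 ± 0.60 and -1.11 ± 0.58, with overlap. Ticrr was at 0.43 without WT replicate 2, with 0.61 as the mean over its 3 probe sets, and Mcm9 at -0.72 without Lig4mut replicate 1.

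Of 27 measured genes of fork protection, the lagging strand and chromatin at forks, 1 was higher and 2 lower at an unadjusted p under 0.05, with a median of 0.08. At that level 15.5% of all genes were higher and 4.18% lower. The 2 lower ones, Tipin and Timeless, encode partners in the fork protection complex. Tipin had 8.79, 8.48 and 8.87 in Lig4mut and 9.51, 9.35 and 9.46 in WT, and Timeless had 8.94, 7.60 and 8.17 in Lig4mut and 9.58, 9.19 and 9.55 in WT. Both were lower in all Lig4mut arrays, with differences of -0.73 ± 0.16 for Tipin and -1.21 ± 0.37 for Timeless, and neither passed over all genes (limma, adjusted p = 0.139 and 0.188). The other probe set of Timeless lay at 0.16 ± 0.71, and the mean of both was -0.53. Tipin has 1 probe set here. Asf1b, a histone chaperone, and Rpa3, a subunit of the single-strand binding protein, were higher without overlap at 0.44 ± 0.13 and 0.27 ± 0.12.

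Of 30 measured genes of nucleotide synthesis and salvage, 2 were higher and 2 lower at an unadjusted p under 0.05 (15.5% and 4.18% of all genes), with a median of -0.02. Atic and Gart, enzymes of purine synthesis, were lower without overlap. Atic had 10.00, 9.91 and 10.13 in Lig4mut and 10.74, 11.23 and 10.68 in WT (-0.87 ± 0.20, adjusted p = 0.143), and Gart differed by -0.80 ± 0.28. The other probe set of Atic overlapped (-0.15 ± 0.19), and the mean of both was -0.51. Of the 3 other probe sets of Gart 1 lay above 0 (1.07 ± 0.80), and the mean of all was -0.39. Nme1, a nucleoside diphosphate kinase, and Mthfd2, a mitochondrial folate enzyme, were higher without overlap, by 0.61 ± 0.22 and 1.19 ± 0.45. The other probe sets of Nme1 (0.32 ± 0.23) and Mthfd2 (0.56 ± 0.52) overlapped, and the means over both probe sets were 0.46 and 0.88. None of Atic, Gart, Nme1 and Mthfd2 passed over all genes (limma, adjusted p = 0.224 for Gart, 0.233 for Nme1 and 0.239 for Mthfd2). With arrays centred on their medians the lower values shrank to -0.45 for Tipin, -0.53 for Atic and -0.48 for Gart, and the higher ones grew to 0.88 for Lrwd1, 0.71 for Asf1b, 0.57 for Rpa3 and 0.95 for Nme1.

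The 9 measured markers of cycling cells, mostly genes of mitosis, averaged 9.43, 9.10 and 9.27 in Lig4mut and 8.93, 8.62 and 8.83 in WT, without overlap and with none at the floor. Of them 1 (11.1%, against 19.7% of all genes), the spindle checkpoint gene Bub1b, had an unadjusted p under 0.05 (1.69 ± 0.26; limma, adjusted p = 0.125). Bub1b had the largest difference of the 9, and the arrays of the genotypes overlapped for 7 of them. The other 2, Bub1b and Cdk1 (0.54 ± 0.27), were higher without overlap, where 21.0% of all genes were so. The mean level over all genes was 7.11 to 7.13 in Lig4mut and 6.99 to 7.01 in WT, also without overlap. Of the 9 differences 8 were above 0, where 62.9% of all genes were, and Mki67, the proliferation marker, had the 1 below 0 (-0.27 ± 0.20). Mki67 was at 10.85, 11.00 and 10.77 in Lig4mut and at 11.36, 11.28 and 10.79 in WT. The part of these levels in the values of the replication genes was not tested.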

How the data were processed

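Total RNA of sorted HSC was measured on 1-colour Affymetrix arrays, 3 per genotype. The deposited values are log2 levels per probe set, and the submitters' processing notes name RMA as the tool, without its version. The series text names a Nugen amplification kit, and the labels' protocol the Affymetrix cRNA method. The lowest value was 3 on every array, a floor that neither the labels nor the file explains. Precision is set by how many arrays there are, since they have no read depth.

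Gene names came from the platform annotation held by GEO, with symbols updated by gene identifier to RefSeq's GRCm38.p6 table for 34741 of 34945 probe sets. Probe sets with several genes or none and controls were left out. A gene was represented by its probe set with the highest mean. Some of these carry the manufacturer's suffix for probes shared between transcripts (3 genes) or open to cross-hybridization (6 genes).

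Since array distributions differed, the values were quantile normalized over all probe sets before limma 3.58.1 in R 4.3.3 (lmFit, eBayes, two-sided, Lig4mut minus WT, all 6 arrays, no filter, checked on simulated data). P-values were adjusted by the Benjamini-Hochberg method over 18193 genes. An exact permutation test of 3 against 3 arrays cannot go below 0.1 and was not run.

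The genes and lists were chosen with earlier results of these data known. Named genes are the 3 with the smallest p of each of 6 roles, Pcna and Mcm2, and the 2 with the smallest p per direction in each of 3 related lists. Other genes were named after their values were seen. Alternatives covered scaling, probe sets, dim genes, variance model, array weights, a replicate block and leaving out each array.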

Additional observations from a re-analysis of the deposited data

How the results depend on the processing

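No replication gene passed the threshold of 0.05 by limma under any of the 15 alternatives. With quantile normalization of all arrays the lowest adjusted p-values by limma were those of Cdc45 (0.138) and Rfc4 (0.171). Which genes had the lowest ones changed with the alternative. In the values as deposited Cdc45 was at 0.267 and Rfc4 at 0.313. Without Lig4mut replicate 1 Cdc45 was at 0.130 and Rfc4 at 0.196, beside Orc4 and Prim2 at 0.123, Orc3 at 0.131 and Rfc5 at 0.135. With arrays centred on their medians 9 genes were higher and 1 lower at an unadjusted p under 0.05 (18.4% and 2.6% of all genes), in place of 3 and 2, and the median difference was 0.423. The lower count was 1 with cyclic loess (4.39%) and 1 with dim genes left out (4.36%). Without 1 array in turn, the higher count ran from 1 to 5, the lower from 0 to 4 and the median difference from 0.087 to 0.273. The cause was not tested. Same-numbered arrays of the genotypes did not deviate together (correlations of -0.032 to 0.036), and the sample titles give only a replicate number. With 3 arrays per genotype this cannot show whether same-numbered samples were handled together. With the replicate block the counts were 3 and 2 (11.7% and 4.05% of all genes) and the median 0.158. Prim2 was no longer among the 3 higher genes, since it came after Cdc45, Rfc4 and Mcm2 (limma, adjusted p = 0.325 against 0.302). Of 465 values of the 31 named genes under the alternatives, 462 kept their direction. The other 3 were Rrm1 (0.056) and Pcna (0.24) with arrays centred on their medians, and Rrm2 without Lig4mut replicate 3, with a range of -0.12 to 0.99 when 1 array was left out. With 3 arrays per genotype, a p that misses the threshold does not show that a gene did not differ.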
